A study of Schizosaccharomyces pombe with 6 samples.

Results

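The left end of chromosome II was examined on its own: the first 100 kb of that chromosome for which the tiling arrays carried probes. All non-control probes on chromosome II with a middle between positions 29563 and 129563 were taken, which gave 310 of the 42641 nuclear probes (0.727%). The first of them starts 29533 bp inside the reference assembly, so the repeats nearest the telomere were not covered. The rule uses positions only, though the region was picked with earlier results of these data known. The cells were Schizosaccharomyces pombe, fission yeast. The rad3Δ group (3 arrays) was cdc25-22 rad3Δ, and the WT group (3 arrays), named as in the labels, was cdc25-22. Both groups thus carried the cdc25-22 allele, a temperature-sensitive form of the phosphatase that starts mitosis, and neither is a fully wild-type strain. Both were held for 4 h at 36.5 °C, let go at 25 °C in EMM6S medium and given 6 mM hydroxyurea after release. When the cells were harvested is not stated in those labels. Each array compared DNA immunoprecipitated (IP) with Ssb1 in one dye with the matching input in the other.

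Ssb1 is the large subunit of RPA, replication protein A, which binds the single strands exposed wherever a duplex is opened, as at replication forks and origins. Hydroxyurea starves forks of nucleotides by inhibiting ribonucleotide reductase, and Rad3, the fission yeast kinase of the ATR family, senses RPA-coated DNA and holds back further origins. Fission yeast origins have no fixed sequence and lie mostly in AT-rich stretches between genes. The chromosome ends of this yeast are subtelomeres, in which silent chromatin, late replication and genes for nutrient uptake and for cell surface proteins are common.

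Sequences of 4 AT-rich islands are shown so that the letters stand beside the levels given for them below. An island here is a stretch of reference sequence with at least 75% A+T over 500 bp. The first is the island with the largest strain difference of the 16 on the left end, and the second lies in the gap with the largest strain difference. The third lies in the outer 50 kb, which on average were low in both strains. That island itself was called below the median probe of the array in WT but not in rad3Δ. The last is the island nearest the end. Each is the central 300 bases, read from the RefSeq assembly ASM294v3 on the forward strand, and capitals mark runs of at least 8 A or at least 8 T.
Between aes1 and SPBPB21E7.09, chrII:74501-74800: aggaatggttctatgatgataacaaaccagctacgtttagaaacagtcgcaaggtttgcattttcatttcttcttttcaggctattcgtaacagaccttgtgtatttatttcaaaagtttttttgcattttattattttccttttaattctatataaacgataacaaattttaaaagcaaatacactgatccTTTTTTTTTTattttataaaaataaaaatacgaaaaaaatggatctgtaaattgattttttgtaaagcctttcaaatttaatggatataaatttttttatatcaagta
Between alr2 and aat1, chrII:110176-110475: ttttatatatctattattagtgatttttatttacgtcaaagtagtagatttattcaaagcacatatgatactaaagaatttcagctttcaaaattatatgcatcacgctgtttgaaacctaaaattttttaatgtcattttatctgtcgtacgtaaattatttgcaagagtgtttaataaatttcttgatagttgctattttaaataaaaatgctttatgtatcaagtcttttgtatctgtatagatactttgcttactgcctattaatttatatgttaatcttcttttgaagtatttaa
Between grt1 and SPBPB8B6.05C, chrII:52801-53100: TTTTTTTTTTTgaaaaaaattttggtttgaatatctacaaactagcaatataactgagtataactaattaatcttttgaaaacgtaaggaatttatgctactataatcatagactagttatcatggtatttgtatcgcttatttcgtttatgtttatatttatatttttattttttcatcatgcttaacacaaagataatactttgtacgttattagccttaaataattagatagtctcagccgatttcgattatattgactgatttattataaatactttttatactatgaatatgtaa
Outward of SPBC1348.12, chrII:31501-31800: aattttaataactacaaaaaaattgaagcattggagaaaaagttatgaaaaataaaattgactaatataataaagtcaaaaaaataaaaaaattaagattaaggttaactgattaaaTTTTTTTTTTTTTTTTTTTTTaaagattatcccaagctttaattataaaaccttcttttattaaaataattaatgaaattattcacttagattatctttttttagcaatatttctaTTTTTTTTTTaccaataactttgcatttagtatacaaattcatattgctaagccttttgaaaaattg
Runs of 8 or more A or T on either strand were found in 8 of the 16 islands of the left end, against 207 of the 322 islands tested in all (64.3%) and 15.3% of 35812 stretches of 300 bases laid along the matching part of the genome. The second sequence holds no such run, and its strain difference was the largest but for that of the first.

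Values below are log2 IP over input, set so that the median probe of each array is 0, and means are given ± SD over 3 arrays per strain. A level is therefore relative to the median probe. Dye scaling and this centring remove any change of RPA shared by the whole genome, and no control IP without Ssb1 was used here. Cells were measured in bulk, so RPA on the DNA of fewer cells and less RPA per cell cannot be told apart. Whether replicates came from separate cultures is not in the labels, so the p-values here reflect the spread of these arrays, and that spread may be technical. In rad3Δ, 24 of the 33 probes of rad3 had lost their input signal. Their median log2 input was -7.40, -5.10 and -5.58 in rad3Δ, against -0.49, -0.19 and -0.38 in WT. Replicates of the same number shared a slide, rad3Δ always at position 4 and WT at position 2, and the effects of strain and of position cannot be told apart. Green marked the IP on slides 1 and 2 and red on slide 3, so dye orientation and slide 3 cannot be told apart either. Over the 310 probes the ratio correlated at 0.75 to 0.81 between rad3Δ arrays and at 0.61 to 0.70 between WT arrays.

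The left end had a low outer part and a higher inner part in both strains, and within each slide rad3Δ lay above WT in both parts. In rad3Δ the mean of the 310 probes was 0.082, -0.045 and -0.20 on the 3 arrays, and in WT it was -0.29, -0.29 and -0.60. Every rad3Δ array was above every WT array. The means were -0.053 ± 0.14 in rad3Δ and -0.40 ± 0.18 in WT, and within slides 1, 2 and 3 the rad3Δ value exceeded the WT value by 0.38, 0.25 and 0.41. The exact permutation test gave p = 0.1, the smallest that 3 arrays against 3 can give. Blocked by replicate number, the exact test gave p = 0.25, the smallest that 3 pairs can give. The outer 50 kb (173 probes) averaged -0.42 ± 0.32 in rad3Δ and -0.73 ± 0.25 in WT, and here the arrays of the strains overlapped (exact permutation p = 0.3). Within slides 1, 2 and 3 the rad3Δ value exceeded the WT value by 0.43, 0.26 and 0.25 in the outer part and by 0.31, 0.24 and 0.61 in the inner part. The inner 50 kb (137 probes) stood at 0.35, 0.35 and 0.53 in rad3Δ, against 0.044, 0.11 and -0.078 in WT. These did not overlap (means 0.41 ± 0.10 in rad3Δ and 0.027 ± 0.097 in WT, exact permutation p = 0.1).

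The outer and inner 50 kb were then set against each other. Inner minus outer was 0.48, 0.71 and 1.30 on the rad3Δ arrays and 0.61, 0.73 and 0.94 on the WT arrays. It was above 0 on 6 of 6 arrays (exact sign-flip permutation p = 0.03125, two-sided, the smallest that 6 arrays can give). This sign-flip test, like those below, took the 6 arrays as independent, though arrays of the same slide varied together. With slides as the unit, such a small p could not be reached. The input alone had a step of 0.34, 0.40 and 0.31 on the rad3Δ arrays and 0.24, 0.29 and 0.20 on the WT arrays, also above 0 on 6 of 6. Between the strains the step of the ratio did not differ beyond the spread of the arrays (0.83 ± 0.42 in rad3Δ, 0.76 ± 0.17 in WT, exact permutation p = 0.9). Against all other probes on the same array, the left end as a whole differed by -0.069 ± 0.12 in rad3Δ and -0.38 ± 0.16 in WT (exact sign-flip permutation p = 0.0625 over 6 arrays). The rad3Δ value changed sign under another background correction and without dim probes, at 0.026 and 0.010, so no direction is given for that strain.

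**Figure D1:**
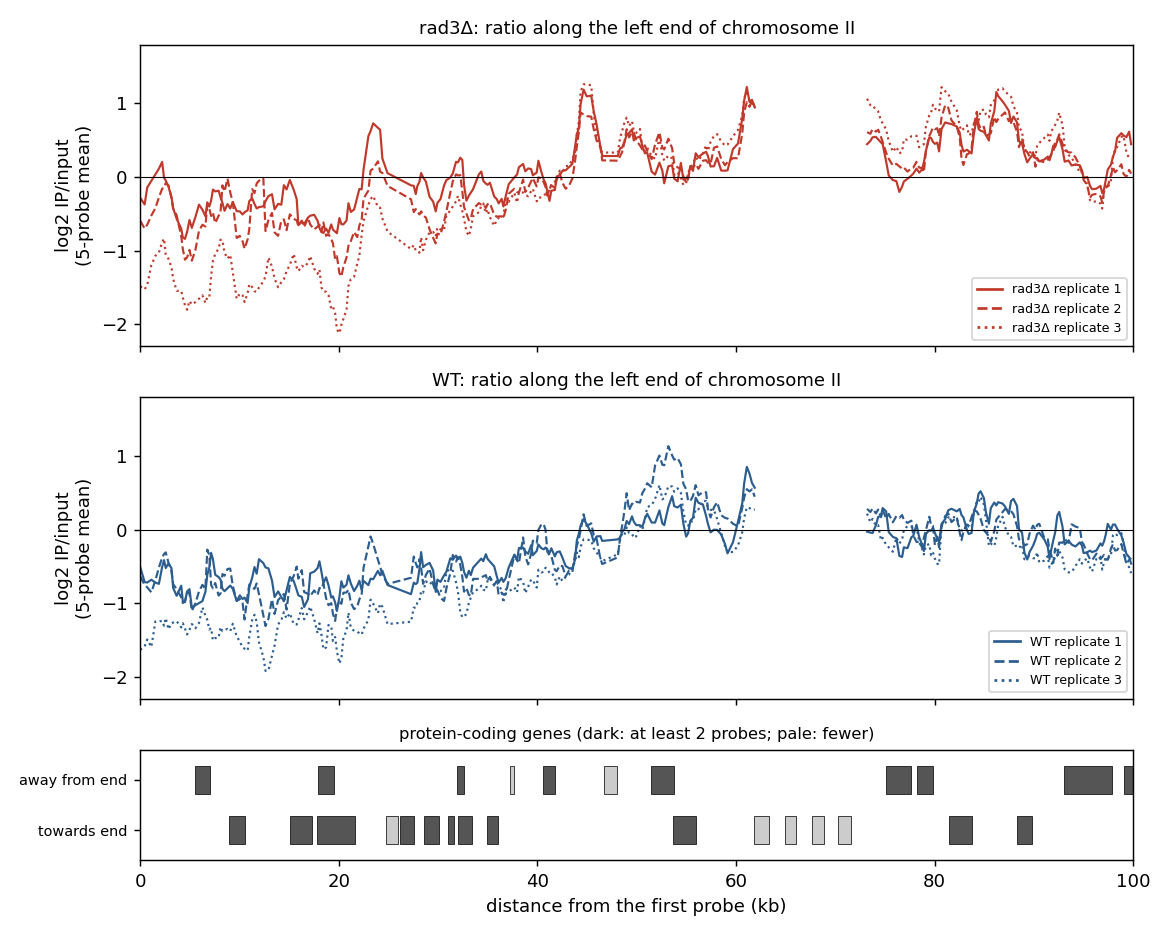
Log2 IP over input (5-probe running mean, array median at 0) against distance from the first probe in kb, for the 3 rad3Δ arrays (top) and the 3 WT arrays (middle), with protein-coding genes below. Lines break where no probe lies for over 5 kb. Every WT array stays below 0 over the outermost 20 kb, replicate 3 lies lowest there in both strains, and rad3Δ peaks stand near 45, 61 and 81 to 88 kb.

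Windows of 10 kb showed where the change of level lay. The outermost windows stood at -0.73 ± 0.53 and -0.85 ± 0.52 in rad3Δ, and at -0.92 ± 0.37 and -1.04 ± 0.33 in WT. By the plain mean of 3 arrays, among all 1230 windows of the genome, they ranked 13 and 6 from the lowest in rad3Δ, and 7 and 3 in WT. From 20 to 30 kb the level was -0.55 ± 0.44 in rad3Δ and -0.82 ± 0.27 in WT. None of these 3 windows passed the test between strains (limma adjusted p, by Benjamini-Hochberg over all windows, 0.0852, 0.123 and 0.0717). From 30 to 40 kb both strains were still below the array median, at -0.26 ± 0.21 in rad3Δ and -0.63 ± 0.18 in WT, and rad3Δ was higher by 0.37 ± 0.083 (SE, limma adjusted p = 0.00681). The window from 40 to 50 kb was at 0.35, 0.27 and 0.40 on the rad3Δ arrays, against -0.17, -0.13 and -0.37 on the WT arrays. It was thus above the array median in rad3Δ and below it in WT, with a difference of 0.57 ± 0.078 (SE, limma adjusted p = 0.000347). Next to it the window from 50 to 60 kb did not pass the test: 0.15, 0.24 and 0.27 in rad3Δ and 0.10, 0.55 and 0.23 in WT, which overlap (adjusted p = 0.6).

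Farther in, the windows from 60 to 70 kb (7 probes), 70 to 80 kb, 80 to 90 kb and 90 to 100 kb all rose in rad3Δ. The highest of the region was that from 60 to 70 kb, at 0.98 ± 0.085 in rad3Δ and 0.42 ± 0.20 in WT, which ranked 5 from the highest of 1230 in rad3Δ and 31 in WT. Its 7 probes all lie within 1751 bp, from 89732 to 91482, and the rest of that window has no probe. The level and rank are thus those of this short stretch. From 80 to 90 kb the strains differed most, with 0.60, 0.59 and 0.83 in rad3Δ, against 0.13, 0.028 and -0.068 in WT. Its difference was 0.64 ± 0.084 (limma adjusted p = 0.00028). From 70 to 80 kb the levels were 0.43 ± 0.22 in rad3Δ and 0.011 ± 0.10 in WT, and from 90 to 100 kb 0.19 ± 0.072 in rad3Δ and -0.26 ± 0.13 in WT (adjusted p = 0.00834 and 0.00135). In all, 6 of 10 windows were higher in rad3Δ and 0 were lower, where over the genome 19.2% of windows were called higher and 10.9% lower. At an unadjusted p under 0.05 limma found 8 higher and 0 lower (genome 305 and 251 of 1230). With replicate numbers as blocks, 6 were higher and 0 lower after adjustment (genome 309 and 304), and 9 and 0 at an unadjusted p under 0.05 (genome 346 and 371). In 6 windows every rad3Δ array was above every WT array and in 0 below (genome 20.7% and 16.6%). Against the array median, 6 windows were above and 4 below in rad3Δ (genome 35.9% and 31.9%), and 2 were above and 6 below in WT (genome 31.3% and 28.5%). Without replicate 3 of either strain 5 windows were called, the window from 70 to 80 kb, at a difference of 0.26, being lost (genome 130 of 1230 called higher). Without a dye term the window from 30 to 40 kb was not called (adjusted p = 0.079). A normexp background correction in place of the deposited one kept the sign of all 33 strain differences called among windows, genes, gaps and islands (median 0.51 with normexp, 0.625 as reported). It left 0 of them past the limma threshold, with 20 of the 33 at an unadjusted p under 0.05. This loss was not particular to the region. Over the genome normexp left 2 of 1230 windows, 0 of 4162 genes, 0 of 1606 gaps and 0 of 322 islands called higher, against 236, 408, 260 and 153 as reported.

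**Figure D2:**
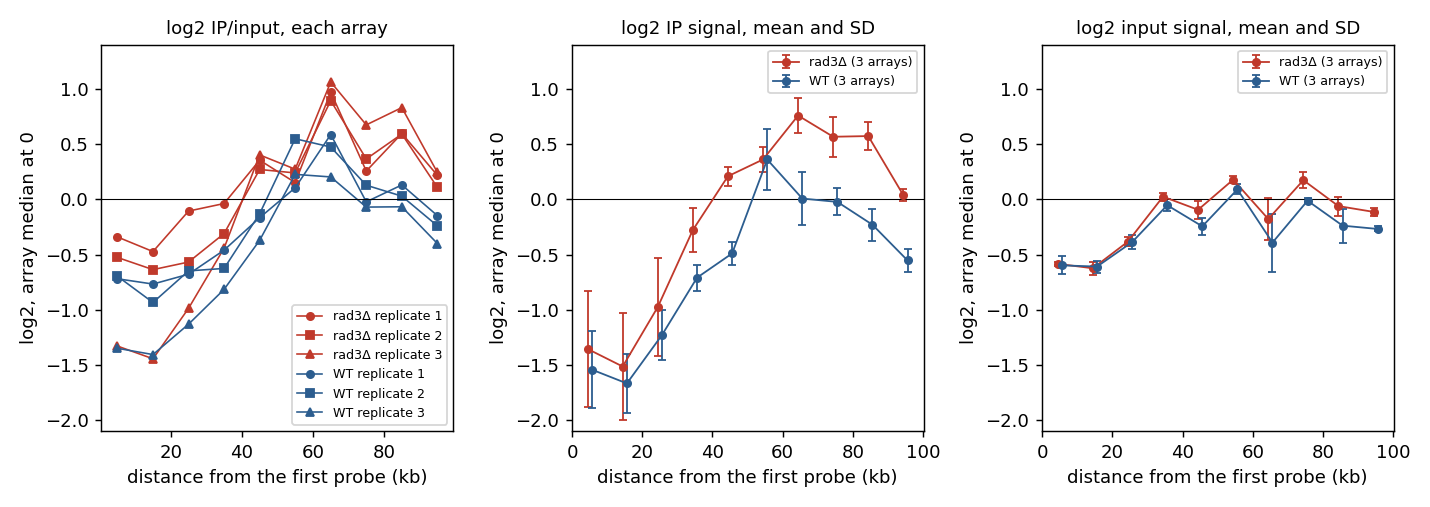
Windows of 10 kb by distance from the first probe: log2 IP over input on each array (left), and the IP (middle) and input (right) signals apart as mean and SD of 3 arrays per strain, each with the array median at 0. The input of both strains is near -0.6 in the outer 20 kb, and from 40 kb inwards the IP of rad3Δ lies above that of WT except from 50 to 60 kb.

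The ratio was taken apart into its channels to see which of them carried the pattern. In the outer 20 kb the input itself was low, at -0.58 ± 0.021 in rad3Δ and -0.60 ± 0.081 in WT from 0 to 10 kb and -0.62 ± 0.057 in rad3Δ and -0.61 ± 0.054 in WT from 10 to 20 kb. The IP was lower still, at -1.35 ± 0.53 in rad3Δ and -1.54 ± 0.35 in WT from 0 to 10 kb. Over the outer 30 kb (103 probes) the input averaged -0.54 ± 0.034 in rad3Δ and -0.54 ± 0.063 in WT, with overlapping arrays. In the inner 50 kb the input stood at 0.0053, 0.072 and -0.033 in rad3Δ, against -0.21, -0.074 and -0.13 in WT. Those values did not overlap (exact permutation p = 0.1), so the inner part of the region held more input signal in rad3Δ as well as more IP per input. The IP there was 0.39 ± 0.093 in rad3Δ and -0.13 ± 0.14 in WT. Averaged over all 310 probes the input was -0.18 ± 0.026 in rad3Δ and -0.27 ± 0.063 in WT (exact permutation p = 0.1, no overlap). Blocked by replicate number, the exact test gave p = 0.25.

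The outer low was deepest on slide 3. Over the outer 30 kb the ratio was -0.32, -0.58 and -1.27 on the rad3Δ arrays and -0.72, -0.77 and -1.31 on the WT arrays, lowest on slide 3 in both strains. IP was well above background there in 95.15%, 93.2% and 89.32% of probes on the rad3Δ arrays, and in 95.15%, 92.23% and 61.17% on the WT arrays. Over the 63 probes that were well above background in both channels on all arrays, the ratio was -0.77 ± 0.50 in rad3Δ and -0.92 ± 0.27 in WT, so the low was present in those probes too. For 3 probes in rad3Δ and 3 in WT the IP was never well above background, and their ratio is only a bound. The part of dye orientation in the depth of the low was not tested.

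Set beside the other chromosome ends, taken as the outermost 100 kb with probes in the same way, the left end of chromosome II had the largest step. Its inner minus outer 50 kb exceeded that of each of the other 5 ends on 6 of 6 arrays, by a mean of 0.53 for the left end of chromosome I, 0.69 for the right end of I, 0.98 for the right end of II, 0.998 for the left end of III and 1.03 for its right end. The exact sign-flip permutation p was 0.03125 in each of the 5 comparisons and 0.03125 after Benjamini-Hochberg adjustment over them, the smallest possible. Here too the 6 arrays were taken as independent. The outer 50 kb of chromosome I stood at 0.16 ± 0.30 on the left and 0.82 ± 0.071 on the right in rad3Δ, and at -0.996 ± 0.38 and -0.72 ± 0.27 in WT. WT was thus low at these 3 ends, and only the left end of chromosome II among the 6 was below the array median in rad3Δ. The strain difference over the outer 50 kb was 0.31 at the left end of II, against 1.15 and 1.54 at the ends of I. With the left end of II subtracted array by array, those differences exceeded it by 0.84 and 1.23, with no overlap between strains (exact permutation p = 0.1 each, the smallest possible). At the right end of II and the left and right ends of III the same exact permutation test gave p = 0.3, 0.5 and 1.

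**Figure D3:**
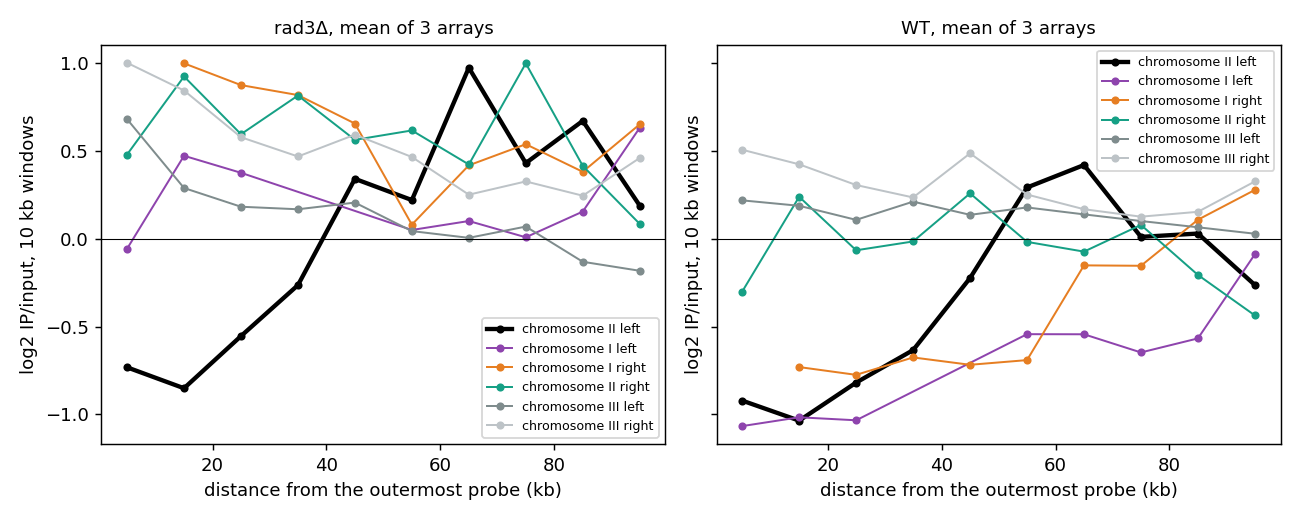
Log2 IP over input in 10 kb windows by distance from the outermost probe at 6 chromosome ends, as means of 3 arrays, in rad3Δ (left) and WT (right), where windows with under 5 probes are left out. The left end of chromosome II (black) is the only end below -0.5 in rad3Δ, whereas in WT both ends of chromosome I also fall below -0.5.

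Protein-coding genes were taken next. Of the 27 that touch the region, 20 held at least 2 probes, and their values are means of the probes inside them. Overlapping genes share probes and were counted separately. In rad3Δ 6 of the 20 genes were higher than in WT and 0 were lower, where over the genome 9.8% of genes were called higher and 1.3% lower (limma adjusted p under 0.05). At an unadjusted p under 0.05 there were 7 higher and 1 lower (genome 713 and 434 of 4162). Their median difference was 0.19, against -0.037 over all 4162 genes. Without replicate 3 of both strains, which leaves 2 arrays against 2, 1 gene, mug14, was called, and 7 were higher at an unadjusted p under 0.05. Over the genome 84 of 4162 genes were then called higher, and 444 were at an unadjusted p under 0.05. The differences of the 6 called genes then were 0.69 for SPBPB21E7.10, 0.47 for SPBPB21E7.11, 0.41 for alr2, 0.39 for aat1, 0.62 for pfl7 and 0.72 for mug14. In 7 genes every rad3Δ array was above every WT array and in 1 below (genome 15.4% and 12%). Genes were also set against the array median within each strain. In rad3Δ 4 were above it and 11 below it, where the genome has 24.3% and 28.1%. In WT 2 were above it and 15 below it, where the genome has 19.8% and 25.3%.

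All 12 tested genes of the outer 50 kb were below the array median in WT, and 11 of them in rad3Δ. The outermost, SPBC1348.12, annotated as a DNA-binding transcription factor, was at -0.48, -0.61 and -1.63 in rad3Δ, against -0.82, -0.85 and -1.15 in WT. Next inwards, ght7, of the hexose transporter family, had -0.49, -0.80 and -1.59 in rad3Δ, against -0.95, -0.89 and -1.51 in WT, among the lowest genes in both strains. SPBPB8B6.02C, annotated as a urea transporter, stood at -0.86 ± 0.38 in rad3Δ and -1.01 ± 0.26 in WT. The lowest gene in rad3Δ was grt1, a transcription factor gene, with -0.63, -0.95 and -1.67 on the rad3Δ arrays and -0.74, -0.91 and -1.43 on the WT arrays. Its antisense neighbour fah1, annotated as an acetamidase, lies wholly within it and shares its probes, at -1.03 ± 0.48 in rad3Δ and -1.04 ± 0.30 in WT. For these 5 genes the strains overlapped and none passed the test (limma adjusted p = 0.946 for fah1, 0.899 for SPBC1348.12 and 0.370 to 0.780 for the other 3).

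Inside the same outer part, SPBPB21E7.10 and SPBPB21E7.11, a pair of overlapping genes for uncharacterised proteins, rose in rad3Δ. They share probes, so their calls are not independent. Beyond the overlap, 3 neighbouring probes of SPBPB21E7.11, from 62381 to 62885, differed by 0.29, with overlapping arrays. SPBPB21E7.10 was at 0.46, 0.13 and -0.20 in rad3Δ, against -0.35, -0.45 and -1.21 in WT, without overlap. Its difference was 0.80 ± 0.12 (SE, limma adjusted p = 0.00351). SPBPB21E7.11 had -0.023, -0.26 and -0.56 in rad3Δ, against -0.53, -0.70 and -1.14 in WT, with a difference of 0.51 ± 0.11 (adjusted p = 0.0145). Here rad3Δ replicate 3 lay just below WT replicate 1, while within each slide rad3Δ was higher. Without a dye term neither gene SPBPB21E7.10 nor gene SPBPB21E7.11 was called (adjusted p = 0.0571 and 0.126), and without rad3Δ replicate 1 gene SPBPB21E7.11 was not (adjusted p = 0.0529). The other 5 genes of the outer 50 kb, fex2 (a fluoride exporter), eno102 (an enolase), SPBPB21E7.02C (of the phosphoglycerate mutase family), cmt2 (a catechol O-methyltransferase) and aes1, differed by 0.032 to 0.30, and none was called, although for aes1 the arrays did not overlap.

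Beyond 50 kb the picture changed gene by gene. SPBPB10D8.01, which encodes a cysteine transporter, and SPBPB10D8.02C, annotated as an arylsulfatase, were the genes above the array median in WT, and no other gene of the region was called so in that strain. SPBPB10D8.01 stood at 0.11, 0.47 and 0.39 in rad3Δ, against 0.28, 0.99 and 0.57 in WT. SPBPB10D8.02C had 0.12, 0.12 and 0.059 in rad3Δ, against 0.21, 0.66 and 0.28 in WT. WT was the higher strain here on 3 of 3 slides for both genes, and for SPBPB10D8.02C the arrays did not overlap. Neither passed the test (differences -0.29 ± 0.17 and -0.28 ± 0.12, limma adjusted p = 0.304 and 0.171). These genes converge and overlap at their ends. Of the next genes, SPBPB10D8.04C to SPBPB10D8.07C, annotated as transporters, SPBPB10D8.04C held 1 probe and the rest none, in a stretch of 11253 bp without probes, so they have no value.

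Genes of amino acid uptake and metabolism followed. SPBC359.01, annotated as an amino-acid permease, had -0.057, 0.12 and 0.39 in rad3Δ, against -0.23, 0.14 and -0.19 in WT, which overlap (adjusted p = 0.283). The alanine racemase gene alr2 rose to 0.28, 0.30 and 0.60 in rad3Δ, against -0.16, -0.088 and -0.26 in WT, a difference of 0.56 ± 0.12 (limma adjusted p = 0.0125). The amino acid permease gene aat1 stood at 0.46, 0.42 and 0.68 in rad3Δ, against 0.070, 0.035 and 0.0049 in WT. It was the gene with the highest rad3Δ level of the region, and its difference was 0.48 ± 0.10 (adjusted p = 0.0146). Both alr2 and aat1 were above the array median in rad3Δ and were called neither above nor below it in WT.

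The innermost genes were pfl7, abc3 and mug14. For pfl7, which encodes a cell surface glycoprotein of the DIPSY family, the arrays had 0.31, 0.38 and 0.36 in rad3Δ, against -0.32, -0.22 and -0.40 in WT. Its difference was 0.66 ± 0.098 (limma adjusted p = 0.0029). The gene abc3, annotated as a multidrug resistance-associated protein, had -0.012, -0.033 and -0.061 in rad3Δ, against -0.21, -0.23 and -0.48 in WT, without overlap but not called (adjusted p = 0.113). The last gene, mug14, of the adducin family, stood at 0.42, 0.18 and 0.40 in rad3Δ, against -0.44, -0.41 and -0.47 in WT, with a difference of 0.77 ± 0.11 (adjusted p = 0.00223). Both pfl7 and mug14 were above the array median in rad3Δ and below it in WT.

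**Figure D4:**
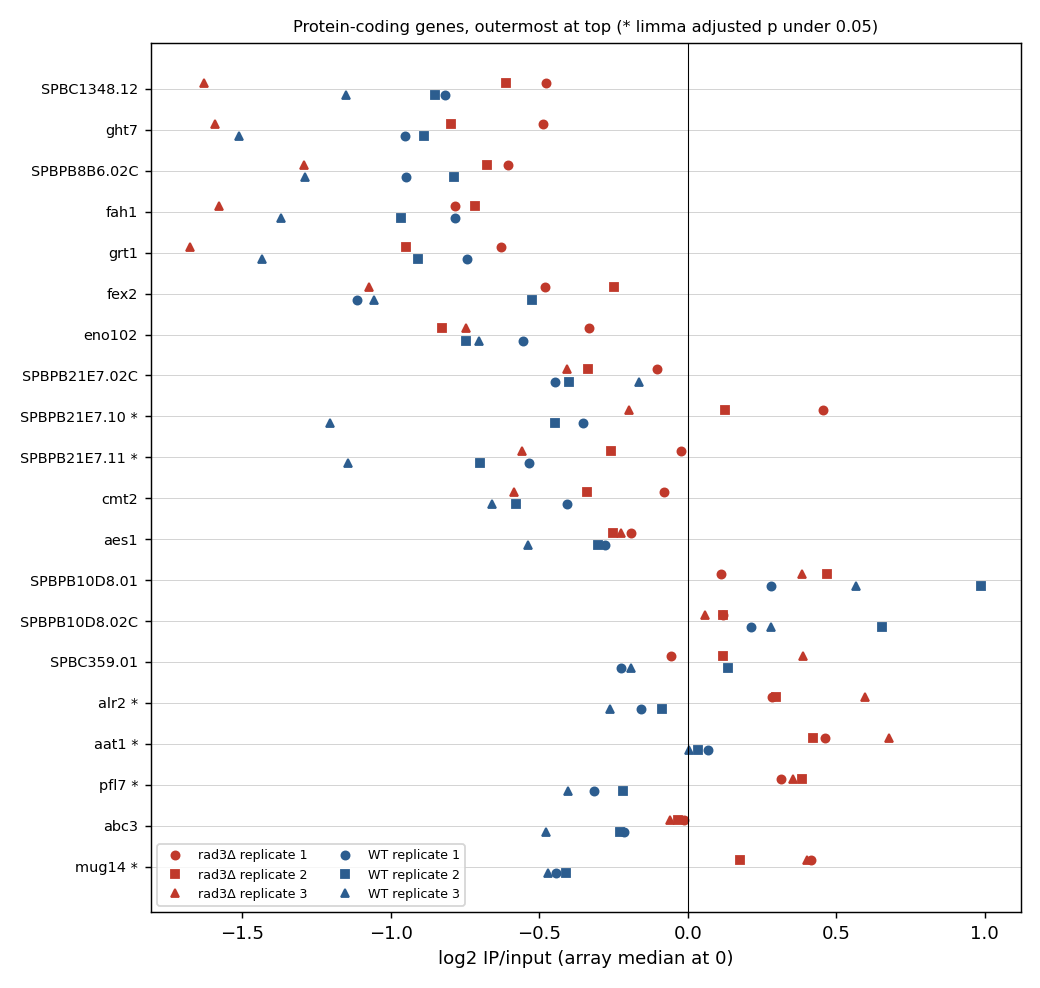
Log2 IP over input of the 20 genes with at least 2 probes, from the outermost (top) to the innermost, with rad3Δ arrays in red above WT arrays in blue and a marker shape per slide. Genes marked * passed the limma test. The 5 outermost genes lie between -0.48 and -1.67 on all arrays, and SPBPB10D8.01 and SPBPB10D8.02C have the highest WT values.

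Genes were also grouped by words of the product name in RefSeq, which put abc3 among the other genes. Among transporters 1 of 6 was higher in rad3Δ (median difference 0.20), among enzymes 1 of 6 (median 0.043), among all others 3 of 7 (median 0.27), and pfl7 was the only cell surface gene. Over the genome 10% of 180 transporters, 9.13% of 1643 enzymes and 10.2% of 2320 other genes were higher, with medians of -0.073, -0.036 and -0.034. By direction, 3 of 9 genes read away from the end and 3 of 11 genes read towards it were higher. By position, 2 of 12 genes of the outer 50 kb and 4 of 8 genes of the inner 50 kb were higher.

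Stretches between neighbouring protein-coding genes were tested in the same way. Of 18 such gaps with at least 2 probes, 7 were higher in rad3Δ and 0 lower, where over the genome 16.2% were called higher and 1.87% lower (limma adjusted p under 0.05). With the replicate number as a block 12 were higher and 0 lower (genome 336 and 66 of 1606). At an unadjusted p under 0.05 there were 14 higher and 0 lower (genome 370 and 109). Without replicate 3 of either strain 3 gaps were called, those between grt1 and SPBPB8B6.05C, aes1 and SPBPB21E7.09, and alr2 and aat1, while 10 were higher at an unadjusted p under 0.05. Over the genome 120 of 1606 gaps were then called higher, and 270 were at an unadjusted p under 0.05. In rad3Δ 9 gaps were above the array median and 7 below it (genome 37.1% and 17.7%). In WT 0 were above it and 10 below it (genome 26.8% and 18.9%), and 1 was above it at an unadjusted p under 0.05. In 13 gaps every rad3Δ array was above every WT array and in 0 below (genome 22.4% and 9.65%). The median difference of the 18 gaps was 0.39, against 0.012 over all 1606 gaps.

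The gap between alr2 and aat1 had the largest difference. These genes point at each other, and the gap stood at 0.58, 0.76 and 1.11 in rad3Δ, against 0.031, 0.012 and -0.16 in WT. The strains differed by 0.86 ± 0.15 (SE, limma adjusted p = 0.00155), which is 1.81-fold. It holds the second of the sequences printed above. The gap between aes1 and SPBPB21E7.09, which is 4985 bp long and holds the first of the sequences, had 0.51, 0.37 and 0.54 in rad3Δ, against -0.21, -0.26 and -0.42 in WT. It was above the array median in rad3Δ and below it in WT (difference 0.77 ± 0.13, adjusted p = 0.00112). Its neighbour aes1, of the phenazine biosynthesis protein family, was at -0.22 ± 0.030 in rad3Δ and -0.37 ± 0.14 in WT, and SPBPB21E7.09, annotated as an L-asparaginase, held no probe.

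Nearer the end the gap between grt1 and SPBPB8B6.05C rose. SPBPB8B6.05C, annotated as an L-asparaginase, held 1 probe. The gap had 0.25, -0.19 and -0.60 in rad3Δ, against -0.69, -0.65 and -1.28 in WT, without overlap. The difference was 0.70 ± 0.14 (limma adjusted p = 0.00405), whereas grt1 itself, whose start borders the gap, differed by -0.056 ± 0.12 and was not called. Without probes not well above background the difference of the gap was 0.39 and not called (adjusted p = 0.0702), nor was it called without a dye term (adjusted p = 0.0684). The gap between SPBC1348.12 and ght7 was at -0.24, -0.27 and -0.94 in rad3Δ, against -0.62, -0.65 and -1.41 in WT, with overlapping arrays, and it was below the array median in both strains (difference 0.41 ± 0.12, adjusted p = 0.0346). This call was lost when any 1 of the 6 arrays was left out (adjusted p = 0.0539 to 0.21), without dim probes (adjusted p = 0.0537) and without a dye term (adjusted p = 0.338). Its flanking gaps were the lowest of the region in both strains. The outermost gap, from SPBC1348.10C to SPBC1348.12, stood at -0.77 ± 0.55 in rad3Δ and -0.92 ± 0.39 in WT. The gap between ght7 and SPBPB8B6.02C stood at -0.70 ± 0.59 in rad3Δ and -1.03 ± 0.37 in WT. Neither was called (adjusted p = 0.482 and 0.152).

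In the inner part, 3 further gaps rose besides that between alr2 and aat1. The gap between aat1 and pfl7 had the highest rad3Δ level of all 18, at 0.79, 0.73 and 0.97, against 0.37, 0.13 and 0.044 in WT (difference 0.65 ± 0.14, limma adjusted p = 0.00589). The gap between pfl7 and abc3 had 0.36, 0.33 and 0.61 in rad3Δ, against -0.044, -0.19 and -0.35 in WT (difference 0.62 ± 0.14, adjusted p = 0.00722). The gap between SPBPB10D8.07C and SPBC359.01 had 0.51, 0.65 and 0.96 in rad3Δ, against 0.13, 0.30 and 0.072 in WT (difference 0.54 ± 0.14, adjusted p = 0.0208). None of the 3 overlapped between strains. The gap between SPBPB10D8.02C and SPBPB10D8.04C had the highest WT level, 0.24 ± 0.11, with 0.53 ± 0.11 in rad3Δ, and was not called (adjusted p = 0.169). By orientation of the flanking genes, 2 of 4 divergent, 2 of 2 convergent and 3 of 12 tandem gaps were higher, where over the genome 20.2%, 16% and 12.3% were.

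**Figure D5:**
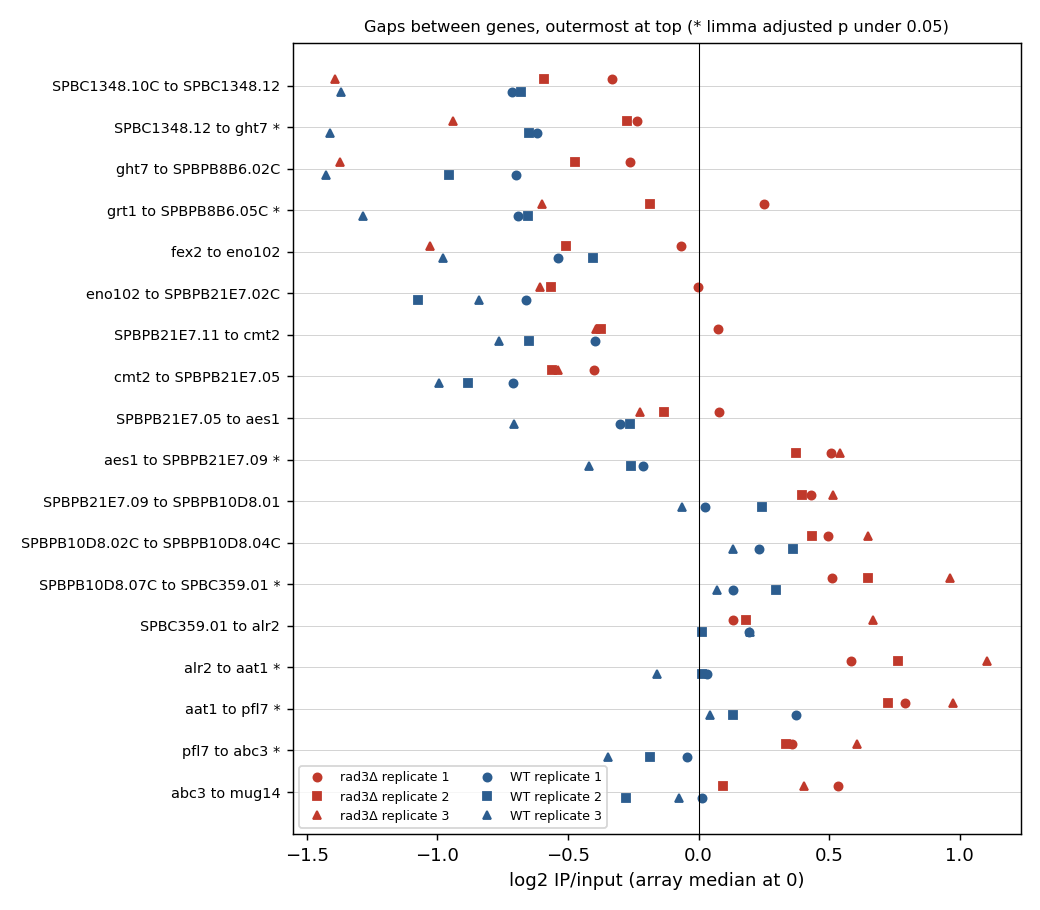
Log2 IP over input of the 18 gaps between protein-coding genes, from the outermost (top) to the innermost, with rad3Δ arrays in red above WT arrays in blue and a marker shape per slide. Gaps marked * passed the limma test. From the gap between aes1 and SPBPB21E7.09 inwards every rad3Δ value is above 0.

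Of the 16 AT-rich islands, each taken with the probes within 500 bp of it, 14 were higher in rad3Δ and 0 lower. Over the genome 47.5% of 322 islands were called higher and 2.8% lower (limma adjusted p under 0.05). At an unadjusted p under 0.05 the count here was 14 and 0, against 157 and 13 of the 322. Their median difference was 0.64, against 0.28 over all islands. In 10 islands every rad3Δ array was above every WT array and in 0 below (genome 49.7% and 6.21%). Against the array median, 8 islands were above and 6 below in rad3Δ (genome 59% and 12.4%), and 0 were above and 8 below in WT (genome 19.9% and 19.6%). Neighbouring islands can share probes. The island between aes1 and SPBPB21E7.09 had 1.097, 0.83 and 1.26 in rad3Δ, against 0.074, 0.049 and -0.14 in WT, a difference of 1.07 ± 0.14 or 2.10-fold (adjusted p = 1.44e-07). A probe inside it, from 74495 to 74553, stood at 1.68 ± 0.43 in rad3Δ and -0.074 ± 0.23 in WT, the largest difference of any probe of the region (1.75 ± 0.22, adjusted p = 0.00184). The island between alr2 and aat1 had 0.49, 0.69 and 1.05 in rad3Δ, against -0.071, -0.071 and -0.22 in WT (0.86 ± 0.15, adjusted p = 6.61e-06).

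Both outer islands whose sequence is shown passed the test as well, but neither under every alternative. The island between grt1 and SPBPB8B6.05C had 0.73, 0.11 and -0.26 in rad3Δ, against -0.68, -0.19 and -1.01 in WT (0.82 ± 0.16, limma adjusted p = 4.08e-05), where rad3Δ replicate 3 and WT replicate 2 overlap. Without probes not well above background its difference was 0.28 and not called (adjusted p = 0.122). The island nearest the end, outward of SPBC1348.12, had 0.12, -0.20 and -0.90 in rad3Δ, against -0.47, -0.43 and -1.28 in WT (0.40 ± 0.14, adjusted p = 0.0157), and stayed below the array median in both strains. It was not called without a dye term (adjusted p = 0.218) or without rad3Δ replicate 1 (adjusted p = 0.119). In the first 50 kb 7 of 9 islands were higher. The island between aes1 and SPBPB21E7.09, which lies 45 kb in, was the 1 above the array median in rad3Δ, and 6 were below it. In the inner 50 kb 7 of 7 were higher, and 7 were above the array median in rad3Δ while 0 were in WT (1 of the 16 at an unadjusted p under 0.05). The islands not called were that starting at position 36751, between SPBC1348.12 and ght7, with a difference of 0.21 ± 0.14, and that starting at 43951, between ght7 and SPBPB8B6.02C, with 0.24 ± 0.15 (adjusted p = 0.216 and 0.185). The other 10 called islands are given by start position. Outward of aes1, the differences were 0.44 at 37551, 0.49 at 41801, 0.81 at 53401 and 0.46 at 66551. Inward of it they were 0.56 at 89751, 0.60 at 102201, 0.76 at 108801 (in alr2), 0.72 at 110701, 0.68 at 117701 (in pfl7) and 0.76 at 121401. Without dim probes the island at 41801 had 0.18 and was not called, and that at 53401 had 0.42 and was. Without a dye term those at 37551 and 41801 were not called (adjusted p = 0.0799 and 0.217). Without replicate 3 of both strains those at 41801 and 102201 were not called, the last with a difference of 0.39, and the island at 41801 was not called without WT replicate 2 (difference 0.29) or without rad3Δ replicate 1.

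Probes between genes and inside genes were compared array by array. In the inner 50 kb, probes between genes averaged 0.59 ± 0.14 in rad3Δ and 0.082 ± 0.096 in WT, and probes inside genes 0.21 ± 0.064 in rad3Δ and -0.036 ± 0.13 in WT. Between minus inside was 0.38, 0.29 and 0.48 on the rad3Δ arrays and 0.24, 0.0062 and 0.11 on the WT arrays. In the outer 50 kb it was 0.41, 0.43 and 0.59 in rad3Δ and 0.21, 0.20 and 0.16 in WT. In both parts every rad3Δ array had the larger contrast (exact permutation p = 0.1 each, the smallest possible). The G+C content of the probes was 34.98% between and 36.6% inside genes in the outer part, and 34.43% and 36.45% in the inner part. The part of base composition in the contrast was not tested.

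Single probes were tested as well. Of the 310, 19 were higher in rad3Δ and 0 lower, or 6.13% where the genome has 3.52% higher and 0.0844% lower (limma adjusted p under 0.05). At an unadjusted p under 0.05 there were 113 higher and 6 lower (genome 4584 and 1729 of 42641). With the replicate number as a block 52 were higher and 0 lower (genome 2424 and 192). Without replicate 3 of either strain 0 were higher, as were 0 of the 42641 over the genome. Of the 19 probes, 9 lay in the outer and 10 in the inner 50 kb. In 97 of the probes every rad3Δ array was above every WT array and in 5 every rad3Δ array was below, where the genome has 10.5% and 7.06%. Against the array median, 86 probes were above and 98 below in rad3Δ (genome 17.2% and 17.6%), and 20 were above and 151 below in WT (genome 12.8% and 16%). Runs of at least 3 neighbouring called probes described the extent, by a rule set after the data were seen. Such runs were not counted over the rest of the genome, so whether their number or extent is unusual was not tested. Above the array median, rad3Δ had 9 runs covering 15.6 kb, the longest of them 4305 bp from 113784 to 118088, between aat1 and pfl7 and into pfl7, at 0.86 ± 0.13 in rad3Δ and 0.19 ± 0.19 in WT. WT had 2 such runs, covering 1.398 kb, both reaching into SPBPB10D8.02C. Below the array median, rad3Δ had 12 runs covering 19.9 kb and WT had 11 covering 31.7 kb, with the longest in WT 11555 bp from 41497 to 53051 over SPBPB8B6.02C, grt1 and fah1. At that stretch the levels were -0.81 ± 0.49 in rad3Δ and -1.01 ± 0.34 in WT.

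Beyond the inner border of the region the strains kept their order. The last 5 probes inside averaged 0.30 ± 0.27 in rad3Δ and -0.42 ± 0.076 in WT, and the first 5 probes beyond it 0.56 ± 0.19 in rad3Δ and -0.22 ± 0.12 in WT.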

How the data were processed

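RPA (Ssb1) ChIP-on-chip was measured on 6 two-colour Agilent tiling arrays, 3 per strain. Per the file headers, the deposited intensity values (processed signals of both dyes) are background-subtracted and dye-normalized by the authors with Agilent Feature Extraction (version 10.7.3.1 in the submitters' processing notes; the headers give 10.7.1.1 for both arrays of slide 1 and 10.7.3.1 for the rest). The deposited log10 ratio of red over green, per the file headers, and the authors' value table, a ratio column, served as checks. The value table held ratios of the same arrays and was used, as log2, as an alternative. Set against the scanner values of the same array, each of its columns ran as IP over input on a linear scale (correlation 1 after log2) with medians of 0.996 to 1.06.

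Log2 IP over input was computed from the deposited intensities without outlier spots, and each array was centred on its median. The IP dye was taken from the labels. Windows of 10 kb and probes were fitted over the whole nuclear genome with limma 3.58.1 (R 4.3.3), with strain means and a dye term. Genes, gaps and islands were fitted alike, but only where probe positions matched the reference. This left out chromosome I beyond position 3751045, and their shares over the genome are shares of the matching part. All p-values were adjusted by Benjamini-Hochberg over all features of a kind. A feature was called at an adjusted p under 0.05. In limma the variance of each feature is drawn towards one shared by all features of its kind. The weight of the shared variance (prior degrees of freedom) was 29.23 for islands and 6.995 for genes. The p-values of islands thus rest largely on the shared spread. Single values had exact permutation tests (Python 3.11.15, pandas 2.3.3, numpy 2.4.6, scipy 1.17.1, matplotlib 3.10.9). Strain differences are limma log2 differences ± SE, and means ± SD are plain means of 3 arrays. A gene or gap took the probes with their middle inside it (at least 2), and an island those within 500 bp (75% A+T over 500 bp, steps of 50 bp). The number of arrays limits the precision, and median intensities were 969 to 1106 for input and 1007 to 1145 for IP.

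The headers name the build Spombe:NCBI:Feb2002. Genes came from RefSeq ASM294v3, after a check of positions by the relation of probe length to the G+C content of that reference. It placed 4 of 4 stretches at the left end within 12 bp of the same position. In the matching part as a whole it did so for 360 of 365 stretches. On chromosome I beyond position 3751045 it did so for 0 of 60. Other matches of probes were sought with blastn 2.17.0. Probe positions are those of the array design, and gene, island and printed sequence positions those of ASM294v3.

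Same-numbered arrays shared a slide, and their deviations from the group means correlated at 0.40, 0.36 and 0.48 (all other pairs -0.29 to -0.10), so the numbers pair the samples. Blocked values are given where they change a count. The members, lists and rules were chosen with earlier results of these data known. Named were all called genes, gaps and islands, the 5 genes and 3 gaps highest and lowest in each strain, the first and last gene, and the neighbours of named gaps. Others were named after their values were seen. The fit was tested on simulated data: of 100 changed genes among 4162, it recovered 83% at a log2 change of 1 and 100% at 2, and single probes 0% and 46%. Of the simulated calls, 3.7% were false for genes and 8.4% for gaps. The simulated arrays had no shared slide effect, and no change under 1 was tried. Every gene and gap difference reported here is under 1, so recovery at those sizes was not tested. The protocol fields speak of RNA, and one input channel, that of the third rad3Δ array, reads cdc25-23. Both were taken as slips of the labels, and this was not tested.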

Additional observations from a re-analysis of the deposited data

How the results depend on the processing

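The strain difference of the whole left end kept its sign under every alternative run (0.24 to 0.41). That of rad3Δ against the rest of the arms reversed to 0.026 with a normexp background and to 0.010 without probes not well above background. With normexp 0 windows, genes, gaps, islands and probes were higher in rad3Δ (6, 7, 6, 7 and 52 at an unadjusted p under 0.05 in limma). Over the genome it left 2 windows, 0 genes, 0 gaps, 0 islands and 5 probes higher (161, 431, 150, 64 and 2594 at an unadjusted p under 0.05). Of genes and gaps in rad3Δ 2 were above and 7 below the array median with normexp, against 13 and 18 as reported. Over the genome normexp left 376 genes and 167 gaps above it in rad3Δ, against 1012 and 596 as reported. Below it were 569 genes and 113 gaps, against 1169 and 284. The cause was not tested. Probes called higher numbered 10 without the dye term and 52 with the replicate block (genome 1080 and 2424 of 42641). Gaps called higher numbered 12 with the replicate block (genome 336 of 1606), which lost no call. With islands defined at 72% A+T, 17 of 28 were higher and 1 lower, where over the genome 374 of 1446 were higher and 43 lower. Leaving out 1 array in turn gave 0 to 22 probes, 1 to 6 genes, 3 to 8 gaps, 5 to 7 windows and 12 to 14 islands higher, and 0 to 1 probes lower. Over the genome it gave 0 to 1485 probes, 84 to 393 genes, 120 to 271 gaps, 130 to 241 windows and 131 to 149 islands higher. Without replicate 3 of either strain the dye term takes up the array left on slide 3, so the difference is that without both: 0 probes (60 or 61 at an unadjusted p under 0.05), 1 gene, 3 gaps. Genes and gaps above the array median in rad3Δ ranged from 4 to 14 and below it from 9 to 19 (10 without rad3Δ replicate 3, 9 without both), and in WT 0 to 2 were above it, 0 without WT replicate 3. Over the genome 253 to 1068 genes and 266 to 621 gaps were then above it in rad3Δ. Below it were 356 to 1231 genes and 67 to 300 gaps. In WT 185 to 839 genes and 149 to 416 gaps were above it. Among features not called, 7 changed sign: gene SPBC1348.12 (-0.13 without probes not well above background, -0.079 to 0.29 without 1 array, with -0.030, -0.050 and -0.00154 between), gene grt1 (0.27 with normexp, -0.17 to 0.037 without 1 array, with 0.0078 between, and 0.037 without replicate 3 of both strains), gene fah1 (-0.13 without dim probes, -0.071 to 0.12 without 1 array, with -0.038 between), and, each without 1 array, gene eno102 (-0.12 to 0.16, with -0.033 between), gene SPBPB21E7.02C (-0.053 to 0.20, with -0.000737 between), the gap between fex2 and eno102 (-0.042 to 0.21) and the window from 50 to 60 kb (-0.18 to 0.072). The restriction of the outer 30 kb to probes above background was chosen after seeing the data. For the input signal, normexp, mode and value table alternatives were not run, since they concern ratios.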
